A study of Mus musculus with 2 samples.

Results

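The genes described here are 31 members of the p53 pathway, chosen by name and with earlier results of these data known. They are the regulators of p53 and genes that p53 is known to switch on or that are linked to it. Of these, 3 are mitotic genes. Members were found as probe sets whose only platform gene is one of them, through gene identifiers, and 30 of the 31 had at least 1 probe set, 60 in all, among the 18193 genes of the platform annotation. No probe set was listed under Trp53 itself in the annotation used here, so its transcript was not analysed here. Expression was measured with 2 one-colour arrays of C57BL/6J mouse thymocytes, 1 titled DKO and 1 titled TKO, in the lineage-marker-negative fraction that bead depletion leaves behind. By the series' design text both genotypes lack Cdkn2a and Ring1A and carry floxed Ring1B, DKO being LckCre(-)Cdkn2a-/-Ring1A-/-Ring1Bfl/fl and TKO being LckCre(+)Cdkn2a-/-Ring1A-/-Ring1Bfl/fl, so that Cre driven by the Lck promoter in T-lineage cells meets the floxed gene in TKO alone. By the samples' own genotype field, DKO lacks Ring1A and Ring1B and TKO lacks Cdkn2a as well. Age, sex and the number of animals behind each array are not given in the sources used here. The cells had been kept in standard medium.

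p53 is a transcription factor that DNA damage and oncogenic stress stabilise. Mdm2 marks it for degradation and Mdm4 holds it inactive, and the Arf protein, a product of the Cdkn2a locus beside Ink4a, blocks Mdm2. Active p53 switches on genes of arrest, repair and death, and Mdm2 itself, which closes a feedback loop. In early thymocytes p53 is known for acting as a checkpoint while antigen receptor genes are being cut and joined. The comparison therefore bears on whether p53 genes differ between arrays whose labels, by 1 of the 2 texts, differ in Cdkn2a.

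Cdkn2a had a signal of 679 on the array labelled DKO and 18.5 on the array labelled TKO. The first is above and the second below the floor, which was set at each array's median over its probe sets (68.8 and 71.8). A gene is called measured on an array where its signal reaches that level. Cdkn2a was thus at least 9.47-fold lower on the array labelled TKO, or -0.66 on the log2 scale where the floor was set at the 75th percentile. The value on the array labelled DKO goes against the design text, in which Cdkn2a is absent from DKO too, and it is not stated whether this probe set covers the deleted segment. Ring1 (133 and 147) and Rnf2, the gene of Ring1B (4149 and 4384), differed by less than 2-fold and were above the floor on both arrays. This goes against the samples' field, by which both labels lack Ring1A and Ring1B, and on Ring1A, and for TKO on Ring1B, against the design text, unless these probe sets lie outside the deleted segments. Ring1 rested on 1 probe set, at percentiles 60.4 and 61.2 of the arrays labelled DKO and TKO, so background limits what it says on Ring1A. The arrays are therefore named by their labels.

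Each label had 1 array, so no spread between animals exists, no test could be run, and higher and lower describe these 2 arrays. Marker transcripts of other cell types differed between the arrays. Of the listed B lineage markers, 9 of 9 with a probe set were at least 2-fold higher on the array labelled TKO, and their summed signal went from 9436 to 33586. Of the T lineage markers, 8 of 8 were above the floor on both arrays, and 7 of 8 were lower, the sum going from 77426 to 53194. The sums went from 4653 to 18402 for 6 dendritic markers, of which Flt3 and Siglech were below the floor. Most of that sum came from Cd74 (1197 and 6305) and H2-Aa (3059 and 11611), class II genes that B cells also express, while Itgax had 205 and 230. The sum of 11 macrophage, monocyte and neutrophil markers, of which Cd14 and Itgam were below the floor, went from 3897 to 4733, and its members went apart: Csf1r and Lyz2 had log2 ratios of 1.69 and 1.32, and S100a9 and S100a8 of -1.16 and -0.87. The sums were 1080 and 982 for 6 thymic stroma markers, with Foxn1, Psmb11 and Col1a1 below the floor, and 52.7 and 49.9 for 2 red cell markers, both below it. Xist had 124 and 16502. The Y-linked Eif2s3y had 1711 and 55.3, Kdm5d 652 and 30.4 and Uty 345 and 14.7, each below the floor on the array labelled TKO. This is the pattern of male cells on the array labelled DKO and female cells on the array labelled TKO, so sex goes with the label too. The part of these differences in the p53 values was not tested, and in bulk RNA fewer cells of a type and less RNA per cell cannot be told apart.

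The p53 genes did not shift together in 1 direction. Of the 30 genes with a probe set, 27 were measured on at least 1 array, and 3 (Eda2r, Tnfrsf10b and Dram1) were below the floor on both. Of the 60 probe sets, 47 were measured on at least 1 array and 13 on neither. By a rule of at least 2-fold, 1 of the 27 was higher on the array labelled TKO and 0 were lower, where 3.58% of all 11280 measured genes were higher and 0.532% lower. The median log2 ratio, TKO-labelled minus DKO-labelled, was -0.08 over the 27 genes and -0.03 over all measured genes. Of the 27 ratios 12 were above 0 and 15 below, or 44.4% and 55.6%, beside 45.9% and 53.5% of all measured genes.

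The spread at the lower end was wider than over all genes. By a looser rule of 1.5-fold, 2 of the 27 were higher, or 7.41% beside a background of 8.66%, and 5 were lower, or 18.5% beside 3.27%. Because the members were chosen with earlier results of these data known, these shares describe the list and are not independent evidence. The 2 higher genes were Gadd45a and Sesn1. The 5 lower genes were Psrc1, Gtse1, Zmat3, Ccng1 and Plk2. Under the alternatives in processing, only Psrc1 and Zmat3 stayed past 1.5-fold throughout. The lower quartile of the log2 ratio was -0.42 for the p53 genes and -0.20 for all measured genes, and the upper quartiles were both 0.20. Without the 3 mitotic members, 3 of 24 genes were lower by 1.5-fold (12.5%) and the median was -0.03.

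**Figure D1:**
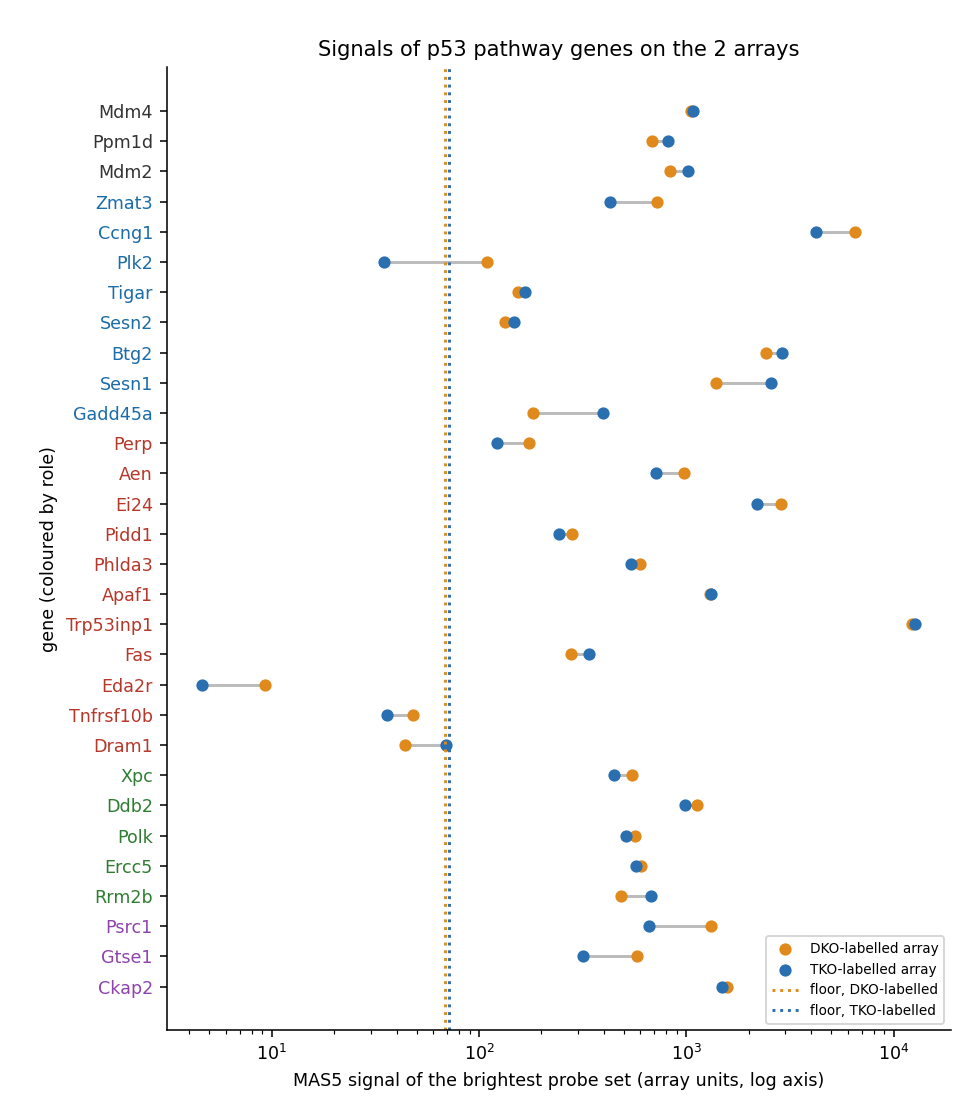
MAS5 signal (array units, log axis) of the brightest probe set of the 30 p53 genes on the array labelled DKO (orange) and the array labelled TKO (blue), 1 array each, with dotted lines at the floors of 68.8 and 71.8 and gene names coloured by role. Blue lies left of orange for Psrc1, Gtse1, Zmat3, Ccng1 and Plk2 and right of it for Gadd45a and Sesn1, and Eda2r, Tnfrsf10b and Dram1 lie below the floors.

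The 3 measured regulators of p53 each differed by less than 1.5-fold, a size that 11.9% of all measured genes reached in either direction. Mdm2, the ubiquitin ligase of p53 and itself a p53 target, had signals of 833 on the array labelled DKO and 1021 on the array labelled TKO, a log2 ratio of 0.29. Its second measured probe set had 284 and 326 (0.20), so both stood slightly on the TKO-labelled side. Mdm4, the relative of Mdm2 that inhibits p53 without degrading it, had 1051 and 1070 (0.03) on its brightest probe set and 228 and 158 (-0.52) on another. The Mdm4 probe sets thus disagreed in direction, and the gene had a log2 ratio of -0.25 as the mean over them. Ppm1d, the phosphatase Wip1 that switches off the damage response, had 686 and 820 (0.26), and a second probe set with 681 and 660 (-0.05).

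Among genes of arrest, growth and oxidative stress, the members spread in both directions. Gadd45a, a stress sensor that binds cell-cycle and repair proteins, had 183 on the array labelled DKO and 395 on the array labelled TKO. It was 2.16-fold higher (log2 ratio 1.11), the 1 member past 2-fold, and it rested on 1 probe set. Both signals were below the floor at the 75th percentile, where the gene had no ratio. Sesn1, a sestrin that restrains the growth kinase mTORC1, had 1390 and 2545 on its brightest probe set, 1.83-fold higher (0.87). Its other probe sets gave smaller or opposite values. A second had 1712 and 1511 (-0.18), another had 849 and 1106 (0.38), and the dimmest was measured on the array labelled TKO alone (42.7 and 78.1). The mean over the Sesn1 probe sets was 0.31. Without the probe set types that can cross-hybridise, the brightest one left was that at 0.38.

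Lower on the array labelled TKO were 3 genes of this group. Zmat3, a zinc-finger RNA-binding protein, had 725 and 428 on its only probe set, 1.69-fold lower (log2 ratio -0.76). Ccng1, cyclin G1, which brings a phosphatase to Mdm2, had 6533 and 4200, 1.56-fold lower (-0.64). All 3 of its probe sets were on the lower side, the others with 659 and 492 (-0.42) and 761 and 687 (-0.15), and their mean was -0.40. Plk2, a polo-like kinase, had 110 on the array labelled DKO and 34.9, below the floor, on the array labelled TKO, at least 1.53-fold lower, and with the floor at the 25th percentile its log2 ratio was -1.65. A second Plk2 probe set was below the floor on both arrays.

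The remaining members of this group differed little. Btg2, an antiproliferative factor that lymphocytes induce readily, had 2418 and 2895 (log2 ratio 0.26), and its second probe set gave 1098 and 1307 (0.25). Sesn2, another sestrin, had 134 and 147 (0.14). Tigar, a phosphatase that slows glycolysis, had 154 and 166 (0.10), and its other probe sets lay close to the floor, with 72.4 and 69.5, and 53.1 and 81.9. In all, 5 of the 8 genes in the group had ratios above 0 and 3 below. These are 62.5% and 37.5%, beside 45.9% and 53.5% of all measured genes.

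Promoter sequence is shown for the 2 genes that were 1.5-fold or more higher, and for Ccng1 as the lower gene with the most probe sets in this role group. Each run holds the 250 bases before a RefSeq transcription start (build GRCm38.p6), read in the direction of the gene. Capitals mark matches to the ten-base p53 consensus decamer, 2 of which make a full response element, and to CCAAT, searched on both strands, and no match overlapped another. For Sesn1, which has more than 1 start in the table, the start inside the locus is shown because its window holds a decamer match, and the window of the other start holds 0 decamer matches and 1 to CCAAT.
Gadd45a, chr6:67037408-67037657, minus strand: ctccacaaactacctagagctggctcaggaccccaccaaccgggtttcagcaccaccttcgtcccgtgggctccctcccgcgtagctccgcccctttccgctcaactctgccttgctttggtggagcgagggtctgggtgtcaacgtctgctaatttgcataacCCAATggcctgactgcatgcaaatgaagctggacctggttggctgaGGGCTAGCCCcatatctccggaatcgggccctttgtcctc
Sesn1, chr10:41887189-41887438, plus strand: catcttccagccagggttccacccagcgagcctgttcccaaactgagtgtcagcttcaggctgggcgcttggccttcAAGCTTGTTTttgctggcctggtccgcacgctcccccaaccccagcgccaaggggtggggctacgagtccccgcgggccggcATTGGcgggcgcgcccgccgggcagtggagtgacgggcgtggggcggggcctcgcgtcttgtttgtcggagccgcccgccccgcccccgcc
Ccng1, chr11:40755287-40755536, minus strand: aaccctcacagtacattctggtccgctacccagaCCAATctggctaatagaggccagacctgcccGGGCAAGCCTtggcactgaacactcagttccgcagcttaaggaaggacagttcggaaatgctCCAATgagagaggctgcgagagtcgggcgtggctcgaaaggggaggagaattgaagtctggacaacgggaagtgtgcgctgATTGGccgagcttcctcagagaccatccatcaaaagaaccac
Each of the 3 windows shown holds 1 match to the decamer. Counted from the transcription start, it begins at base -40 in Gadd45a, -173 in Sesn1 and -185 in Ccng1. Gadd45a was higher and Ccng1 lower on the array labelled TKO. Among the other lower genes, the windows of Plk2, Psrc1 and Gtse1 held 0 decamer matches, and no window was found for Zmat3. Because the Sesn1 window was picked for its match, the windows shown do not relate the decamer to direction. RefSeq windows were found for 24 of the 31 members, 30 windows in all, and 10 of the 30 (33.3%) held the decamer, beside 7.13% of all 32851 windows of that length. The 10 genes were Aen, Ccng1, Ckap2, Ei24, Gadd45a, Mdm2, Polk, Ppm1d, Sesn1 and Trp53. The members were listed as known p53 genes, and a match describes the letters and does not show binding.

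**Figure D2:**
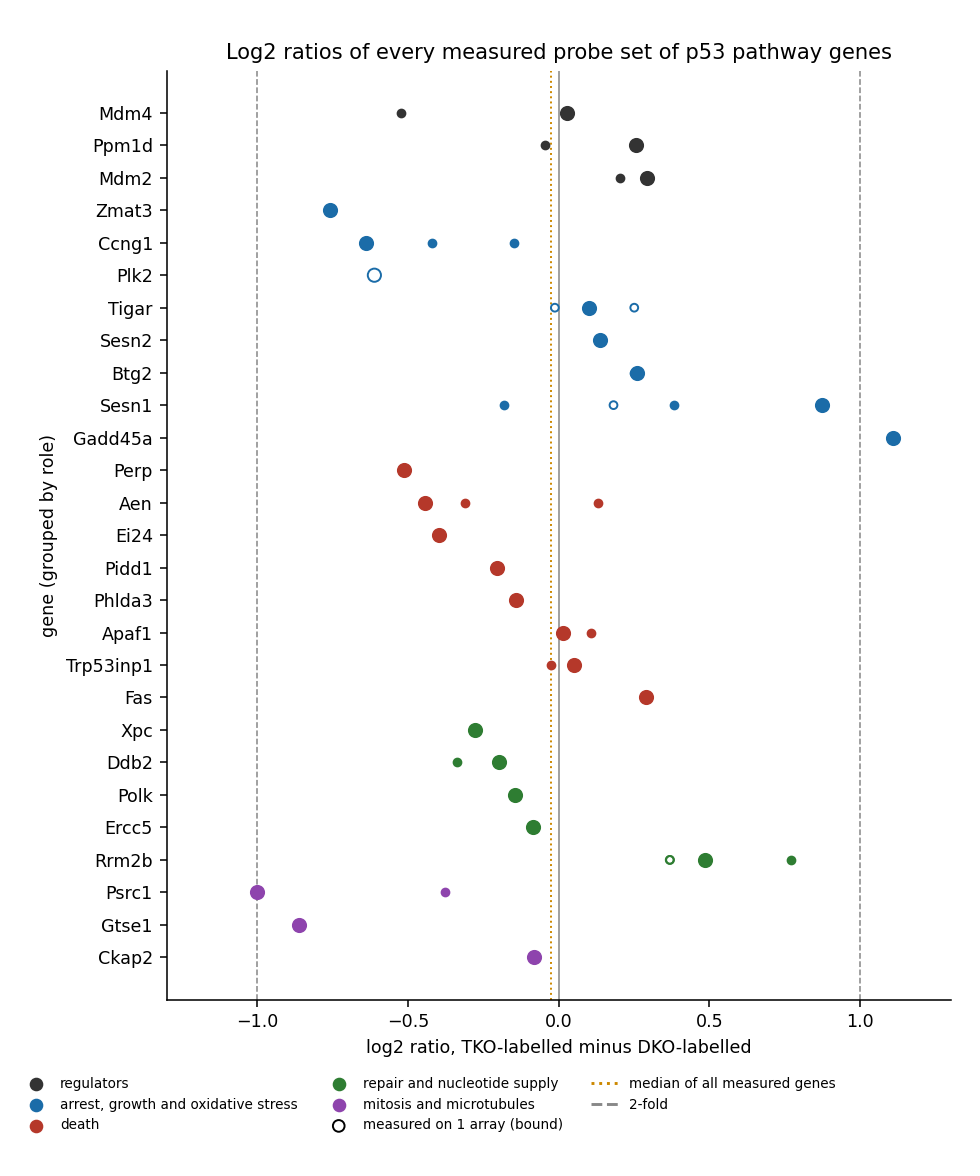
Log2 ratio (TKO-labelled minus DKO-labelled) of every measured probe set of the 27 measured p53 genes, grouped and coloured by role. The brightest probe set of a gene is the larger point, an open point is a bound from 1 array, dashed lines mark 2-fold and the dotted line the median of all measured genes (-0.03). Gadd45a lies beyond the upper 2-fold line at 1.11 and Psrc1 lies at the lower one, while Sesn1 probe sets run from -0.18 to 0.87.

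Of the 8 measured death genes 5 had ratios below 0 (62.5%, beside 53.5% of all measured genes), and the median was -0.17. None passed 1.5-fold, as 11.9% of all measured genes did in either direction. Perp, a membrane protein of desmosomes and of p53-dependent death, had 175 and 123 (log2 ratio -0.51). Aen, an exonuclease that digests nucleic acid in dying cells, had 974 and 716 (-0.44), and its other measured probe sets gave 333 and 268 (-0.31) and 180 and 197 (0.13). Ei24, a protein of the endoplasmic reticulum with a part in autophagy, had 2876 and 2186 (-0.40). These 3 stood on the DKO-labelled side, the dimmest measured Aen probe set excepted.

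Pidd1, the scaffold of the PIDDosome that activates caspase-2, had 281 and 244 (log2 ratio -0.20), and Phlda3, an inhibitor of the kinase Akt, 597 and 541 (-0.14). Apaf1, the core of the apoptosome, had 1307 and 1321 (0.01). Trp53inp1, a cofactor in p53 signalling and autophagy, had 12216 and 12661 (0.05) and, on a second probe set, 193 and 189 (-0.03). Fas, the death receptor whose loss causes lymphoproliferation, had 277 and 339 (0.29). Of the other death receptors, Tnfrsf10b had 48.3 and 36.1 on its brighter probe set and the X-linked Eda2r had 9.33 and 4.62. Dram1, a lysosomal protein of autophagy, had 44.0 and 69.5. These last 3 genes were below the floor, so no ratio is given.

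Of the 5 repair genes 4 had ratios below 0 (80%, beside 53.5% of all measured genes), and the median was -0.15. None passed 1.5-fold, as 11.9% of all measured genes did in either direction. Xpc, which recognises helix-distorting damage, had 545 and 449 (log2 ratio -0.28). Ddb2, which recognises ultraviolet lesions, had 1130 and 986 (-0.20), and a second probe set gave 1090 and 864 (-0.34). Polk, a translesion DNA polymerase, had 565 and 511 (-0.15), and Ercc5, the endonuclease XPG, had 603 and 569 (-0.08). All 4 were slightly on the DKO-labelled side.

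Rrm2b, the p53-inducible subunit of ribonucleotide reductase, was the repair-group member on the other side. Its brightest probe set had 481 on the array labelled DKO and 673 on the array labelled TKO, a log2 ratio of 0.48. A second had 103 and 176 (0.77). The other 2 were above the floor on the array labelled TKO alone, with 61.4 and 88.9, and 36.3 and 88.9. All 4 probe sets were thus higher there. The ratios of the last 2 are bounds set by the floor, and the 2 measured on both arrays were under 2-fold.

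The 3 mitotic members were all lower in value on the array labelled TKO, as were 53.5% of all measured genes. Of the 3, 2 were past 1.5-fold, beside 3.27% of all measured genes lower by that size. Psrc1 (DDA3), a microtubule-binding protein of the spindle, had 1314 on the array labelled DKO and 657 on the array labelled TKO. Its log2 ratio of -0.999 lay just short of the 2-fold rule, and was -1.02 after quantile normalization, which counts it as lower. A second Psrc1 probe set had 242 and 186 (-0.38), the dimmest was below the floor on both arrays, and the mean over probe sets was -0.69. Gtse1, which binds p53 and moves it out of the nucleus in G2 phase, had 578 and 318 on its only probe set, 1.82-fold lower (-0.86), or -0.42 with the floor at the 75th percentile. Ckap2, a spindle protein, had 1564 and 1478 (-0.08).

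Mitosis genes in general had smaller differences. Of 19 measured genes of a list of 20 common mitotic genes, 0 were past 1.5-fold either way, beside 11.9% of all measured genes. Ratios below 0 were found for 16 and above 0 for 3 (84.2% and 15.8%, beside 53.5% and 45.9%). The median was -0.18, beside -0.03 over all measured genes. The lowest were Top2a (18243 and 13807, log2 ratio -0.40), Ube2c (11370 and 8634, -0.40) and Aurka (1836 and 1431, -0.36), and the highest was Cenpe (1256 and 1520, 0.28). By brightest probe set, Psrc1 and Gtse1 thus lay below the lowest of the 19, and Ckap2 lay within the range of the 19. Single probe sets overlapped more. The second of Psrc1 was at -0.38, Gtse1 had 1 only, and the lowest of Cenpf and Top2a were at -0.69 and -0.54.

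The promoter windows of Psrc1 and Gtse1 are shown because these genes had the lowest ratios among the members, in the same format as above. Where a gene has 2 starts in the table, the first is given. Capitals again mark CCAAT on either strand, a motif common before mitotic genes.
Psrc1, chr3:108383554-108383803, plus strand: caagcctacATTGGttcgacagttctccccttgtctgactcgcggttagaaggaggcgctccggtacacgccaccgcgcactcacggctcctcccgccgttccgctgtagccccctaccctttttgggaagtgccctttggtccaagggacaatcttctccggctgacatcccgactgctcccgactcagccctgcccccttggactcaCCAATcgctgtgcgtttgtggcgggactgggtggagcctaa
Gtse1, chr15:85859457-85859706, plus strand: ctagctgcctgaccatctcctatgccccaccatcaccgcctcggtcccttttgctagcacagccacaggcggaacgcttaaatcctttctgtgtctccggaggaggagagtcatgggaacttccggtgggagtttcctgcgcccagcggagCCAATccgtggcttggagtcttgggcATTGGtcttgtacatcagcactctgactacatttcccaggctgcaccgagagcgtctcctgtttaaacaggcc
Both windows hold 2 matches to CCAAT and 0 to the p53 decamer, and the window of the second start of each gene holds 1 and 0. CCAAT stood in 19 of the 30 windows of members (63.3%) and in 33.8% of all windows. Another motif, TTTGAA on either strand, stood in 4 of the 30 (13.3%) and in 15.99% of all windows, and not in these 2. The absence of a match says only that the letters are not in these 250 bases.

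**Figure D3:**
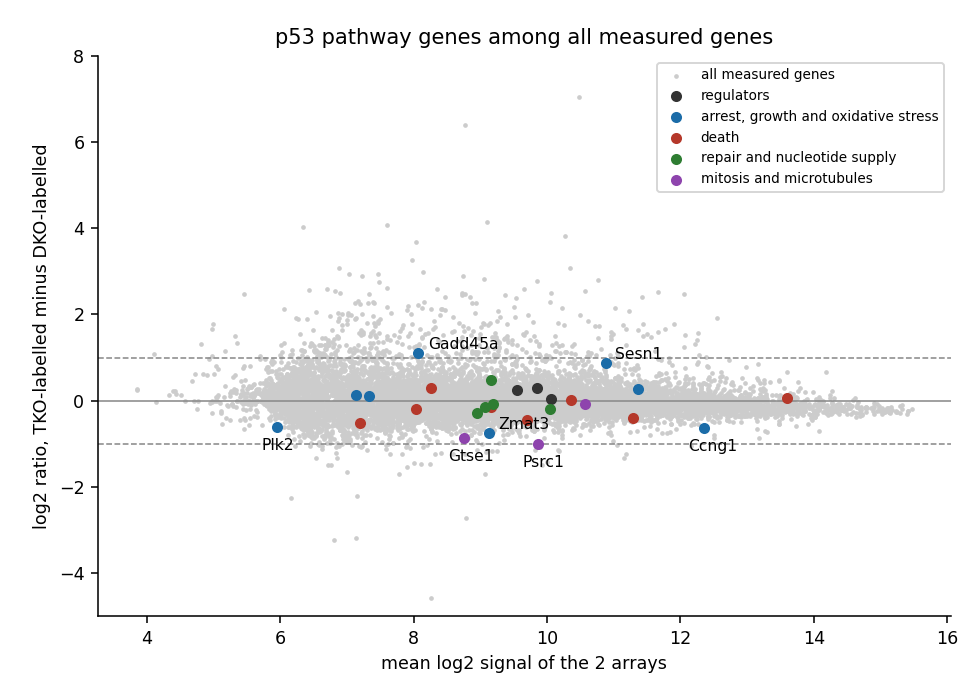
Log2 ratio (TKO-labelled minus DKO-labelled) against the mean log2 signal of the 2 arrays for all 11280 measured genes (grey) and the 27 measured p53 genes (coloured by role), with dashed lines at 2-fold. The 7 named genes passed 1.5-fold, and the other 20 lie nearer 0.

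Probe sets of one gene gauged how far a ratio can be read, since no replicate arrays exist. Over 4794 genes with at least 2 probe sets measured on both arrays, the brightest pair gave a robust SD of 0.21 in the log2 ratio of a single probe set, which holds no error between RNA preparations or animals. Of the 27 p53 genes, 11 had log2 ratios within 1 such SD of 0 (40.7%, beside 51.6% of all measured genes) and 10 were beyond 2 SD (37.0% beside 21.1%). These shares too come from a list chosen with earlier results of these data known. Of the 12 p53 genes with more than 1 probe set measured on both arrays, 7 had all ratios on one side of 0 and 5 on both sides. Their median range between probe sets was 0.29, and Sesn1 had the widest range, at 1.05.

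Other p53 targets and the machinery above p53 were read from lists of names, also chosen with earlier results of these data known. Of 46 further p53 targets 31 were measured, of which 29 were within 2-fold, and the median log2 ratio was 0.04. By 2-fold 1 was higher and 1 lower (3.23% each, beside 3.58% and 0.532% of all measured genes). Abhd4, a lipid hydrolase, was the higher one, with 842 and 1842 (log2 ratio 1.13), and was at 0.72 without cross-hybridising probe set types. Bbc3 (Puma), the BH3-only protein through which p53 kills thymocytes, was the lower one, with 347 and 147 (-1.24) on its only measured probe set. Tnfsf9, the ligand of the costimulatory receptor 4-1BB, was measured on the array labelled TKO alone (61.2 and 119, at least 1.72-fold higher). Gadd45b, a relative of Gadd45a, had 392 and 656 (0.74), while another of its probe sets was at -0.37. Cdkn1a (p21), the arrest gene most tied to p53, had 957 and 824 (-0.22), and Pmaip1 (Noxa) had 888 and 734 (-0.27). These last 2 lie outside the naming rule and were chosen after their values were seen.

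Of 32 genes of p53 activation and its cofactors 28 were measured, and 0 passed 1.5-fold either way, beside 11.9% of all measured genes. Their median log2 ratio was -0.14, with 10 above 0 and 18 below (35.7% and 64.3%, beside 45.9% and 53.5% of all measured genes). The largest were Wrap53, which overlaps the p53 gene on the opposite strand, with 449 and 316 (-0.51), and the ubiquitin ligase Huwe1 with 2445 and 1797 (-0.44). Next were the kinase Dyrk2 with 1875 and 2504 (0.42) and the checkpoint kinase Chek2 with 700.3 and 528 (-0.41). The p53 relatives Trp63 and Trp73 were below the floor on both arrays.

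**Figure D4:**
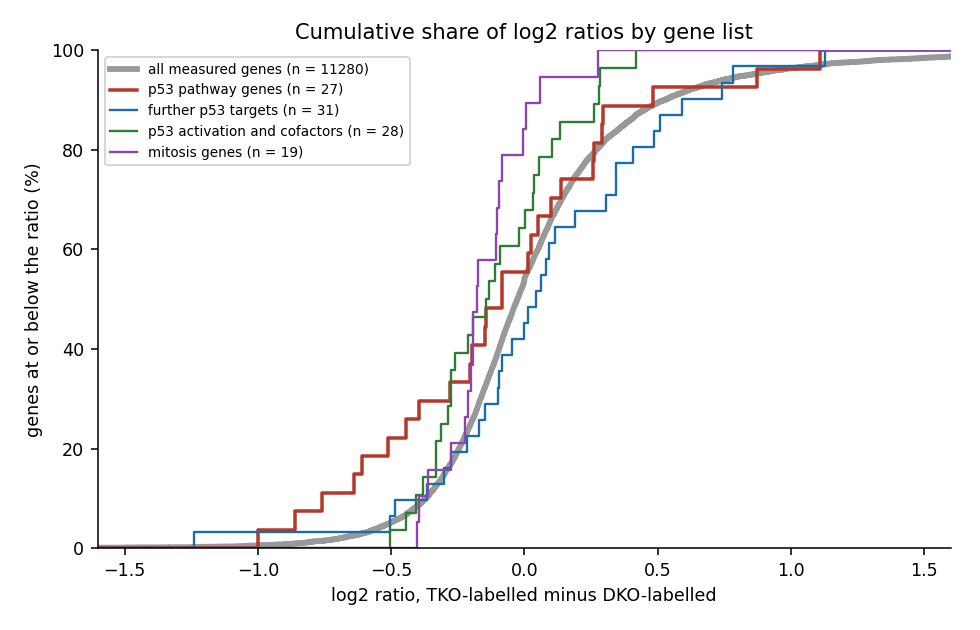
Cumulative share of genes (%) at or below each log2 ratio (TKO-labelled minus DKO-labelled) for all 11280 measured genes (grey), the 27 p53 genes (red), 31 further p53 targets (blue), 28 genes of p53 activation (green) and 19 mitosis genes (purple). From Psrc1, the lowest member, up to about 0 the red curve lies above the grey one, and it runs close to it above 0. Psrc1, Gtse1, Zmat3, Ccng1, Plk2, Perp, Aen and Ei24 fall below about -0.3.

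Set beside the Cdkn2a signal, which was lower on the array labelled TKO, the members went both ways. The genes lower with Cdkn2a by 1.5-fold or more were Psrc1, Gtse1, Zmat3, Ccng1 and Plk2, and those higher were Gadd45a and Sesn1. Of these genes, only Psrc1 and Zmat3 stayed past that size under every alternative in processing. Mdm2, the direct target of Arf at the protein level, had a log2 ratio of 0.29. With 1 array per label, and with B lineage markers and sex-linked transcripts differing between the same arrays, the Cdkn2a difference cannot be told apart from the other differences between them. p53 protein was not measured.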

How the data were processed

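Gene expression was measured with 1 Affymetrix array for each of 2 labels. The values the authors deposited are intensity values, 1 per probe set on a linear scale. Per the submitters' processing notes MAS5 made them, with no version or settings stated. Both arrays had a mean of 497 after 2% was trimmed from each end, so they were used as scaled. Of 45037 probe sets, 34945 had 1 gene in the platform annotation, 932 several and 9160 none. Symbols were updated by Entrez identifier to RefSeq (GRCm38.p6), which matched 99.4%. Each gene took the value of its brightest probe set over both arrays (mean log2 signal). Signals below the array's median were raised to it, a gene below it on both arrays has no ratio, and one below it on 1 array has a bound. MAS5 signals of absent transcripts are not 0, so dim ratios are shrunk by the floor. A bound that pointed against the signals was set to 0. With 1 array per label there is no test, and the number of arrays limits the precision.

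All 31 members were described with every probe set. From each other list at most the 4 genes with the largest absolute ratio were named, and any p53 target past 2-fold. The members and lists were chosen with earlier results of these data known. Sex-linked genes were chosen after their values were known. Software was pandas 2.3.3, numpy 2.4.6, statsmodels 0.14.6 and scipy 1.17.1 under Python 3.11.15, with matplotlib 3.10.9 for figures. The rule was tested on simulated data for TKO against DKO (10757 genes): it counted 100% of 100 bright genes changed by 2.83-fold, 100% of 100 changed by 5.66-fold and 0% of 10557 unchanged genes. Both sizes lie past the 2-fold rule, noise was Gaussian, and dim changed genes were not simulated. How many genes would pass 2-fold between arrays of the same label was not tested, as each label has 1 array. Alternatives were 3 scalings, 2 floors, the mean over probe sets, leaving out _x_at and _s_at probe sets, leaving out the X and Y chromosomes and a 1.5-fold rule.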

Additional observations from a re-analysis of the deposited data

How the results depend on the processing

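The median log2 ratio of the p53 genes stayed between -0.14 and -0.05 over the 8 alternatives, with a main value of -0.08. Of 182 values of single p53 genes under the alternatives, 178 kept their direction, and the 4 that changed sign belonged to Mdm4 and Apaf1. Their main values were near 0 (0.03 and 0.01), and after quantile normalization they were -0.0056 and -0.003. Mdm4 also moved to -0.25 as the mean over probe sets and to -0.52 without _x_at and _s_at probe sets. Its direction thus depended on the probe set. The count of p53 genes at least 2-fold lower was 0, and became 1 after quantile normalization (Psrc1) and 1 with the floor at the 25th percentile (Plk2). The count of higher genes was 1, and 0 with the floor at the 75th percentile, where Gadd45a lay below the floor on both arrays. With a 1.5-fold rule, 0.585 on the log2 scale, 2 p53 genes were higher and 5 lower, and these lists moved with the processing. Ccng1 was at -0.56 with a smoothed trend over signal removed and at -0.40 as the mean over probe sets. Plk2 was at -0.576 with the median log2 ratio set to 0. Sesn1 was at 0.31 as the mean over probe sets. With the floor at the 75th percentile Gtse1 was at -0.42 and Plk2 had no ratio. Only Psrc1 and Zmat3 stayed past 1.5-fold throughout. Over all genes, 404 were at least 2-fold higher and 60 lower. With the floor at the 25th percentile 962 were higher and 434 lower, and with the 75th 147 and 14, since fewer or more dim genes are held at the floor. No paired analysis was possible because each label has 1 array. Signal over background limits Plk2, Sesn2, Tigar, Perp and Gadd45a, which had the lowest signals among the measured members on the array labelled DKO, and Eda2r, Tnfrsf10b and Dram1 gave no ratio.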
